A study of Mus musculus with 2 samples.

Results

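The genes described here are the receptors by which cells sense microbes and the pathway that carries the signal from these receptors to the transcription factor NF-κB. A fixed list of 49 genes was taken, and every probe set annotated to 1 of them and to no other gene was read from the array. Of the 49 genes, 44 had such a probe set, with 92 probe sets in all, out of 18193 genes on the array. The adaptor Ticam2, the kinases Irak4 and Ripk2, the ubiquitin ligase Traf3, and the IκB kinase Chuk were not analyzed here. The list was divided by role into 16 receptors, 22 adaptors, kinases, and their regulators, and 11 NF-κB subunits, inhibitors, and feedback genes.

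Gut epithelial cells of C57BL/6 mice that were wild-type (WT) and of mice that lacked Lrrc19 (Lrrc19 KO) on the same background were compared on 1 Affymetrix array each. LRRC19 is a leucine-rich repeat receptor of the gut epithelium without the TIR domain that TLRs carry in the cytoplasm. Each array received evenly mixed RNA of 5 untreated mice at an age of 6 weeks (2 males and 3 females), kept free of specific pathogens, so that a single value stood for 5 animals and the spread between mice was not measured. The cells were shaken off with EDTA, and magnetic beads were used to deplete macrophages, dendritic cells, B cells, and cells positive for CD4 or CD8. Values are intensities on a linear scale, and differences are given as log2 of the Lrrc19 KO pool minus log2 of the WT pool. A floor of 127, the median of all probe set values, marked dim signals. Where a gene had several probe sets, the one with the highest mean of both pools stood for the gene. With 1 array per genotype there was no replicate, no test, and no p-value, and precision is limited by having only 2 arrays.

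The intensity of Lrrc19, the targeted gene, was 905 in WT against 212 in KO on the brighter probe set and 391 against 20.9, under the floor, on the other, and the sources used here do not give the deleted exons. All 5 enterocyte markers reached the floor, among them Epcam (12473 in WT and 12915 in KO). So did 9 of 10 macrophage markers and all 5 smooth muscle markers, beside 12518 of all 18193 genes. Some were bright, such as C1qa (1886 in WT and 1467 in KO) and Acta2 (12549 and 14996), so the pools held more than epithelium. Fewer cells of a type and less RNA per cell cannot be told apart in such pools. The level of all probe sets together was slightly higher on the KO array (median 131 against 124), and 18 of 18 hybridization spike-ins were higher on it, by a median log2 difference of 0.50, so the sign of a small difference depends on how the arrays are scaled.

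TLRs are transmembrane receptors with leucine-rich repeats that bind microbial lipids, proteins, or nucleic acids, and NOD-like receptors take part in sensing microbes in the cytosol. Most TLRs pass the signal through the adaptor MyD88 to IRAK kinases and the ubiquitin ligase TRAF6, which lead through the TAK1 kinase to the IκB kinase (IKK) complex. IKK marks the IκB inhibitors for destruction, and the NF-κB dimers they held then enter the nucleus and switch on genes, including those of their own inhibitors. In the gut epithelium, this pathway is kept restrained in the presence of commensal bacteria and takes part in the expression of antimicrobial proteins. The study asked whether LRRC19 acts in the gut through TRAF2, TRAF6, and NF-κB, and the comparison below describes the transcripts of these parts, not their phosphorylation, ubiquitination, or protein amount.

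Of the 44 genes, 38 reached the floor in at least 1 pool. The remaining 6 stayed under it in WT and KO alike, namely Tlr6, Tlr8, Tlr13, Nlrp3, Irak3, and Nfkbie. Among the 38, 1 gene (2.63%) differed by at least 2-fold in either direction, beside 0.967% of all 12518 genes that reached the floor. It was Nfkbiz, which was higher in the Lrrc19 KO pool (beside 0.559% of all genes), and none was at least 2-fold lower (beside 0.407%). At 1.5-fold, a limit added after the values were seen, 2 of 38 differed (5.26%, beside 6.18% of all genes), of which 2 were higher (beside 2.78%) and 0 were lower (beside 3.4%). A count of 1 or 2 genes is too small to set these genes apart from the array as a whole. By sign alone, 22 were higher (57.9%, beside 52.1% of all genes) and 16 were lower (beside 47.9%). This split depends on the scaling, since the share of all genes above 0 was 39.3% with the arrays set to equal medians, 62.7% when centered on control genes, and 3.96% when centered on the spike-ins. Of the genes of the list that reached the floor in these settings, 20 of 38, 26 of 38, and 2 of 39 were above 0.

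Most of the genes differed by no more than the probe sets of 1 gene differ among themselves. The SD of the log2 difference between probe sets of the same gene was 0.22, over 4529 genes with at least 2 probe sets that reached the floor in WT and in KO. This SD covers the array's own disagreement and holds no difference between mice. A log2 difference further from 0 than this SD was found in 14 of 38 genes (36.8%), beside 41.8% of all genes. In the plot of levels, the circles of both pools overlap or nearly touch for most genes.

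**Figure D1:**
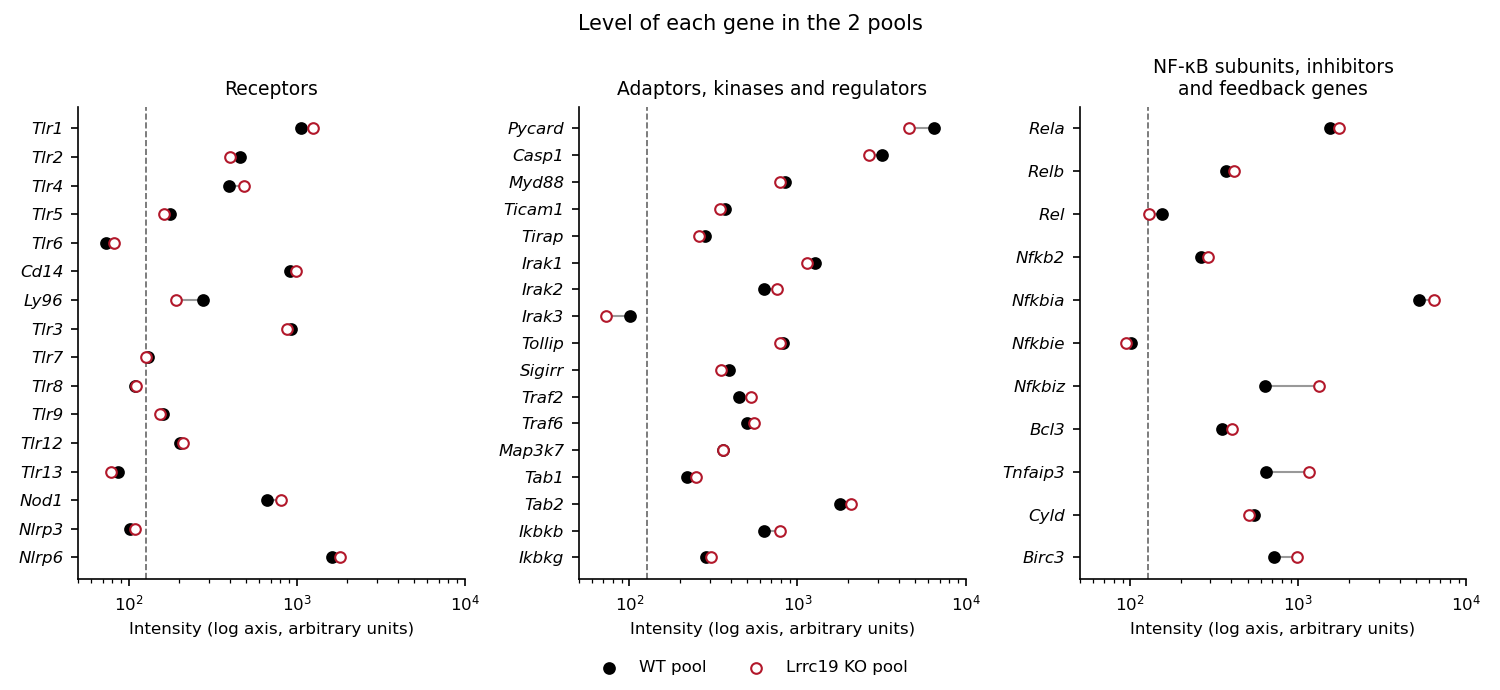
Intensity (log axis, arbitrary units) of each gene in the WT pool (filled black) and the Lrrc19 KO pool (open red), on the probe set with the highest mean, without error bars, since each genotype had 1 array. A dashed line marks the floor (127). The widest gap is that of Nfkbiz (635 in WT and 1326 in KO), and levels of different genes are not comparable, since each probe set has its own brightness.

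The receptors differed little and in no common direction. Of 12 receptors at or above the floor, 6 were higher and 6 were lower in the Lrrc19 KO pool, and the median log2 difference was 0.0049, beside 0.01 over all genes. No receptor passed 1.5-fold. The sign of this median depends on the scaling, as it was -0.08 with the arrays set to equal medians and 0.08 with them centered on control genes. It also depends on the floor, since a floor at the 75th percentile gave 0.16, and relative to the median of all genes it ran from -0.02 to 0.17 over all settings.

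Among the TLRs of the cell surface, Tlr1, which pairs with TLR2 to bind triacylated lipopeptides, was 1056 in WT and 1244 in KO (log2 difference 0.24). Tlr2, the shared receptor for bacterial lipoproteins, was 458 and 404 (-0.18). Tlr4, the receptor for lipopolysaccharide (LPS), was 399 and 489 (0.30). All 3 of its probe sets at or above the floor lay on the same side, the others at 248 and 279 and at 149 and 173. Tlr5, the flagellin receptor, was near the floor (177 and 163, -0.12). Tlr6, another partner of TLR2, was under the floor at 73.3 and 82.0. The receptors of this group thus ran in both directions.

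LPS reaches TLR4 through CD14, which hands it over, and MD-2, encoded by Ly96, which holds it on the receptor. Cd14 was 908 in WT and 988 in KO (0.12). Ly96 was 277 and 192, or 1.45-fold lower in the KO pool (-0.53), further from 0 than any other receptor, and 4.53% of all genes were at least as far below 0. It was read from 1 probe set. Ly96 therefore moved apart from Cd14 and Tlr4, the other parts of the same receptor complex. Both Ly96 and Cd14 are also abundant in macrophages, whose markers are given further on, and the part of those cells in the difference was not tested.

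The TLRs of endosomes, which read nucleic acids, differed least. Tlr3, the receptor for double-stranded RNA, was 920 in WT and 877 in KO (-0.07), and its other probe set was 191 and 159 (-0.27). Tlr9, which detects bacterial DNA, was 160.1 and 154 (-0.05), and Tlr7, for single-stranded RNA, was at the floor (129.9 in WT and 126 in KO). Tlr12, a receptor for profilin of protozoa, was 203 and 210 (0.05). Tlr8 (109.5 and 111) and Tlr13 (86.1 and 78.8), a sensor of bacterial ribosomal RNA, did not reach the floor in either pool. No endosomal TLR at or above the floor differed by more than 0.07 in size on the probe set that stood for it.

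Of the 3 NOD-like receptors on the list, 2 reached the floor. Nod1, which detects a peptidoglycan fragment found mainly in Gram-negative bacteria, was 663 in WT and 805 in KO (0.28). Nlrp6, an inflammasome receptor expressed in the gut epithelium, was 1617 and 1804 (0.16). Nlrp3, an inflammasome receptor best known in macrophages, was under the floor at 102 and 108.5. The differences of Nod1 and Nlrp6 were within the range in which 15.2% and 28.9% of all genes were at least as far above 0.

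**Figure D2:**
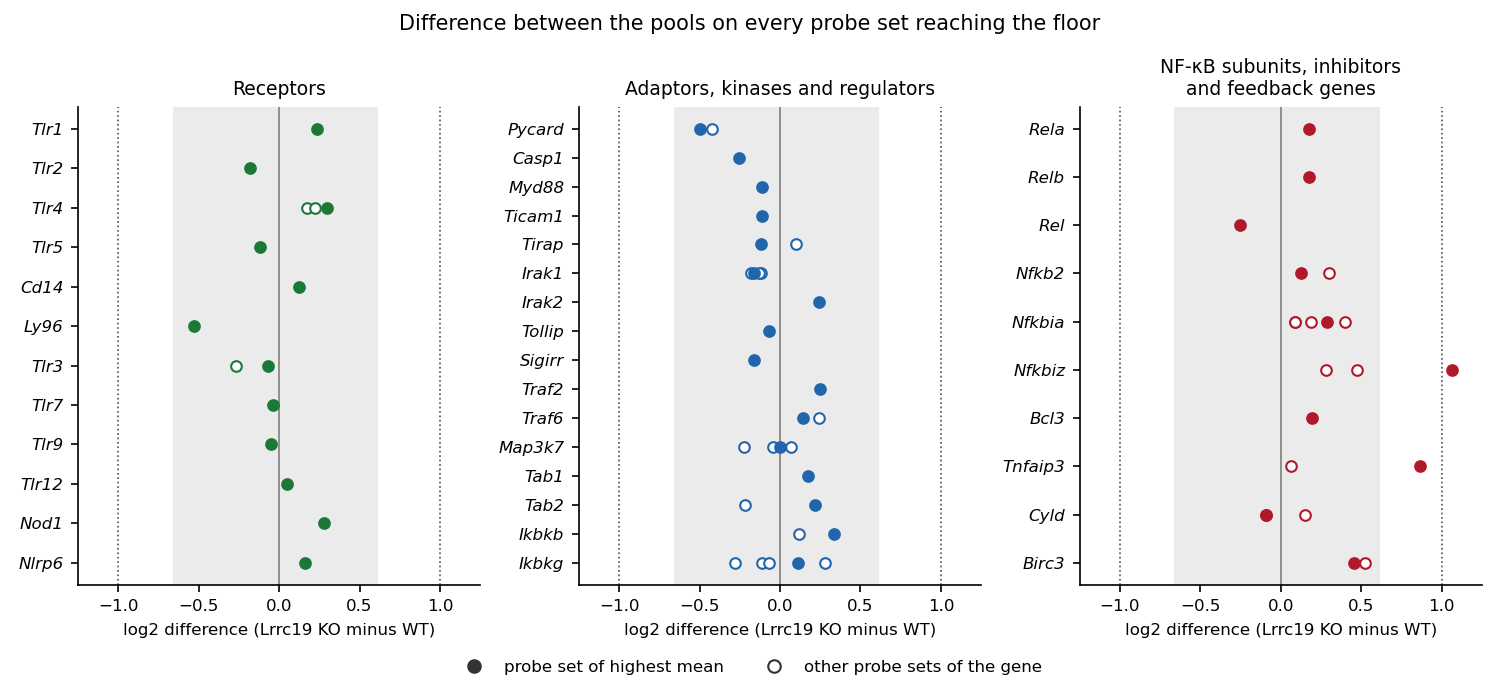
Log2 difference (Lrrc19 KO minus WT) of every probe set that reached the floor, for each gene by role, with filled points for the probe set of the highest mean and open points for the others. The gray band holds the central 95% of all genes (from -0.66 to 0.61), dotted lines mark 2-fold, and only Nfkbiz and Tnfaip3 have a point outside the band.

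The adaptors, kinases, and their regulators differed as little as the receptors. Of 16 at or above the floor, 8 were higher and 8 were lower in the Lrrc19 KO pool, with differences from -0.50 to 0.33 and none past 1.5-fold. The median log2 difference was -0.03, and it was 0.04 with the arrays centered on control genes, so its sign was not settled.

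Pycard encodes ASC, the adaptor that joins inflammasome receptors to caspase-1. It was 6503 in WT and 4608 in KO, or 1.41-fold lower (-0.50), and 5.38% of all genes were at least as far below 0. A second probe set at or above the floor was 244 and 182 (-0.42), and another, under the floor, was 89.2 and 70.8 (-0.33). Both probe sets of Pycard that reached the floor were therefore lower in the KO pool. Casp1, the protease that ASC recruits and that matures IL-1β and IL-18, was 3201 and 2680 (-0.26).

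The adaptors with a TIR domain were all slightly lower. Myd88 was 846 in WT and 783 in KO (-0.11), Ticam1, which encodes TRIF, the adaptor of TLR3 and TLR4, was 372 and 344 (-0.11), and Tirap, which brings MyD88 to TLR2 and TLR4, was 283 and 261 (-0.12). These differences were smaller than the SD between probe sets, and the other probe set of Tirap lay on the opposite side (236 and 253). Centering on control genes did not change the side of any of the 3 adaptors.

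Of the IRAK kinases, Irak1 was lower on all 4 of its probe sets, at 1265 in WT and 1132 in KO on the one with the highest mean (-0.16). Irak2, which sustains the response after IRAK1 is used up, was 636 and 752 (0.24). Among the brakes on TLR signaling, Tollip, which binds IRAK1, was 819 and 782 (-0.07), and Sigirr, a receptor that competes for TIR domain adaptors, was 391 and 349 (-0.16). Irak3, which encodes the inhibitory IRAK-M of macrophages and epithelium, was under the floor at 101 and 72.2. The differences of Tollip and Sigirr were smaller than the SD between probe sets, and that of Tollip was 0.0046 with the arrays centered on control genes.

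Traf2 and Traf6, the ubiquitin ligases that the study places downstream of LRRC19, were not lower in the Lrrc19 KO pool. Traf2 was 447 in WT and 531 in KO (0.25, from its only probe set). Traf6 was 499 and 552 (0.15), and a second probe set was 125 in WT, under the floor, and 147 in KO. With the arrays set to equal medians, the log2 differences were 0.17 for Traf2 and 0.07 for Traf6, and with the arrays centered on the spike-ins they were -0.25 and -0.35. As deposited, the difference of Traf2 was slightly above the SD between probe sets (0.22) and that of Traf6 was under it.

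The TAK1 complex joins TRAF6 to IKK. Map3k7, which encodes TAK1, was 361 in WT and 362 in KO (0.0026), and its 4 probe sets at or above the floor ran from -0.22 to 0.07. Tab1, its activating partner, was 221 and 249 (0.17). Tab2, which binds ubiquitin chains, was 1781 and 2070 (0.22), but 1391 and 1194 on its other probe set (-0.22). The probe sets of Tab2 thus gave opposite signs of equal size.

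Of the IKK complex, Ikbkb, the catalytic subunit IKKβ, was 628 in WT and 792 in KO (0.33), the largest difference toward the KO pool in this class. Another probe set was 313 and 340 (0.12), and the remaining 3 did not reach the floor in either pool. Averaging all 5 gave a log2 difference of 0.08. Ikbkg, which encodes the regulatory subunit NEMO, was 285 and 308 (0.11), and its 5 probe sets that reached the floor ran from -0.28 to 0.28. Across the whole list, 15 genes had at least 2 probe sets that reached the floor in WT and in KO. In 10 of them all such probe sets lay on the same side, and in Tirap, Map3k7, Tab2, Ikbkg, and Cyld they lay on both.

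The NF-κB subunits, inhibitors, and feedback genes were mostly higher in the Lrrc19 KO pool. Of 10 at or above the floor, 8 were higher (80%, beside 52.1% of all genes) and 2 were lower. A log2 difference further from 0 than the SD between probe sets was found in 5 of the 10 (50%, beside 41.8% of all genes), and among these Rel was lower. A class of 10 genes is too small to set it apart from the array as a whole. The median log2 difference was 0.18, smaller than that SD (0.22). This median was above 0 as deposited and under every alternative except centering on the spike-ins, where it was -0.31 and that of all genes was -0.49. Relative to the median of all genes, it was 0.17 higher, and from 0.15 to 0.25 higher over all settings. Scaling by equal medians, control genes, or spike-ins shifts all genes alike, so those settings could hardly move this value. The largest differences were those of Nfkbiz and Tnfaip3, each on 1 probe set.

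Many genes of this class carry κB sites, the short elements that NF-κB dimers bind. The window from 250 bases before to 50 bases after each start of transcription in RefSeq (GRCm38.p6) was searched on both strands for the κB-like motif GGGNNNTTCC. Windows were at hand for 38 genes of the list, not all of them above the floor, and 14 held it (36.8%). Beside this stood 6.31% of the 27025 genes with a window and 7.14% of the 10085 that reached the floor. Counted by window, 17 of 52 windows of the list held the motif (32.7%), beside 5.56% of all windows. By role, it was found in 3 of 12 receptors, 5 of 17 adaptors and kinases, and 6 of 9 NF-κB subunits, inhibitors, and feedback genes. The 250 bases before the start of 5 genes are given 5′ to 3′ along the gene, with the motif in capitals, since they show feedback genes and a receptor with the motif beside a feedback gene without it.
Tnfaip3, chr10:19015411-19015660, minus strand: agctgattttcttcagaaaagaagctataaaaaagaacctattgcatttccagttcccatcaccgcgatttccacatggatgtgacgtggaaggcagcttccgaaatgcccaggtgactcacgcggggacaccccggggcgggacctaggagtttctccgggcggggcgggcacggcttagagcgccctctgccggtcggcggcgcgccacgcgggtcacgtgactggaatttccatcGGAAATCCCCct
Nfkbia, chr12:55492648-55492897, minus strand: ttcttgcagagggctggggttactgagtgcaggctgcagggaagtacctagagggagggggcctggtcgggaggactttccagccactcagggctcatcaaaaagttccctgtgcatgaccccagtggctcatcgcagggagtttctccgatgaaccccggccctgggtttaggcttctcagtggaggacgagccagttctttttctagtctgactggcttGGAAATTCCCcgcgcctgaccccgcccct
Nfkb2, chr19:46304487-46304736, plus strand: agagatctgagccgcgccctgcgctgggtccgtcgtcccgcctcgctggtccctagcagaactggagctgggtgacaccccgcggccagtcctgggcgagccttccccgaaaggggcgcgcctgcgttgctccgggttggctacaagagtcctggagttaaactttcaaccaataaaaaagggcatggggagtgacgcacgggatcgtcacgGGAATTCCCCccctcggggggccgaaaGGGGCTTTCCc
Tlr2, chr3:83841609-83841858, minus strand: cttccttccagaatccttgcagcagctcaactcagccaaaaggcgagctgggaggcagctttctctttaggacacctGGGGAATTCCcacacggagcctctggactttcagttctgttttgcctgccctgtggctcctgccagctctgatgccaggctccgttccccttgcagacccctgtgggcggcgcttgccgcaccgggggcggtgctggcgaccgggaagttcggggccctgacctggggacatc
Birc3, chr9:7873171-7873420, minus strand: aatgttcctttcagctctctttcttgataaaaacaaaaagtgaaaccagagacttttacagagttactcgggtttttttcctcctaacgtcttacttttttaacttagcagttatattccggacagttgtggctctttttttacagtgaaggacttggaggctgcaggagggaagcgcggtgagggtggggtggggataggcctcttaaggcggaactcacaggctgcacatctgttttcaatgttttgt
The motif began 12 bases before the start in Tnfaip3, 29 in Nfkbia, 38 and 11 in Nfkb2, and 173 in Tlr2. No match was found in the window of Birc3. A further match in Tnfaip3 began after the start shown. Tnfaip3 and Nfkb2 also had other starts of transcription whose windows held the motif and are not printed. A match is a string of letters and not a measured site. Whether genes with the motif differed between the pools was not tested. The 720 genes that reached the floor and held the motif had a median log2 difference of 0.01, equal to that of the 9365 without it, and the 10 genes of the list with the motif had a median of -0.03, beside 0.11 in the 19 without it. No window of Nfkbiz was used here.

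Nfkbiz encodes IκBζ, a nuclear IκB protein that is induced by TLR and IL-1 signals and acts as a cofactor at a subset of NF-κB target genes. It was 635 in WT and 1326 in KO, or 2.09-fold higher (1.06), and 0.479% of all genes were at least as far above 0. Its other probe sets were 187 and 226 (0.28) and 175 and 243 (0.47). All 3 were higher in the KO pool, but only the first passed 2-fold, and averaging them gave 0.61. With the arrays set to equal medians, the log2 difference on the first probe set was 0.98, just under 2-fold. Bcl3, the other nuclear IκB protein, which binds NF-κB dimers of p50 or p52, was 352 and 402 (0.19).

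Tnfaip3 encodes A20, an enzyme that edits ubiquitin on TRAF6 and RIP kinases and protects the gut epithelium from inflammation. It was 640 in WT and 1164 in KO, or 1.82-fold higher (0.86), and 0.895% of all genes were at least as far above 0. Its other probe set showed little of this, at 195 and 204 (0.06). Birc3, which encodes the ubiquitin ligase cIAP2, was higher on both of its probe sets, at 716 and 980.1 (0.45) and at 310 and 445 (0.52). Cyld, a deubiquitinase that removes the chains built by TRAFs, was 544 and 510.1 (-0.09). The probe sets of Birc3 were thus of similar size, and those of Tnfaip3 were not.

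Of the IκB inhibitors, Nfkbia, which encodes IκBα, was 5237 in WT and 6384 in KO (0.29). All 5 of its probe sets were higher in the KO pool, with log2 differences from 0.09 to 0.40. Nfkbie, which encodes IκBε, was under the floor at 102 and 94.9. Among the subunits, Rela (1548 and 1747, 0.17), Relb (370 and 417, 0.17), and Nfkb2, the precursor of p52 (265 and 289, 0.13), were slightly higher. Rel, which is expressed mainly in lymphoid cells, was close to the floor at 154 and 129 (-0.26). The differences of Rela, Relb, and Nfkb2 were smaller than the SD between probe sets.

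**Figure D3:**
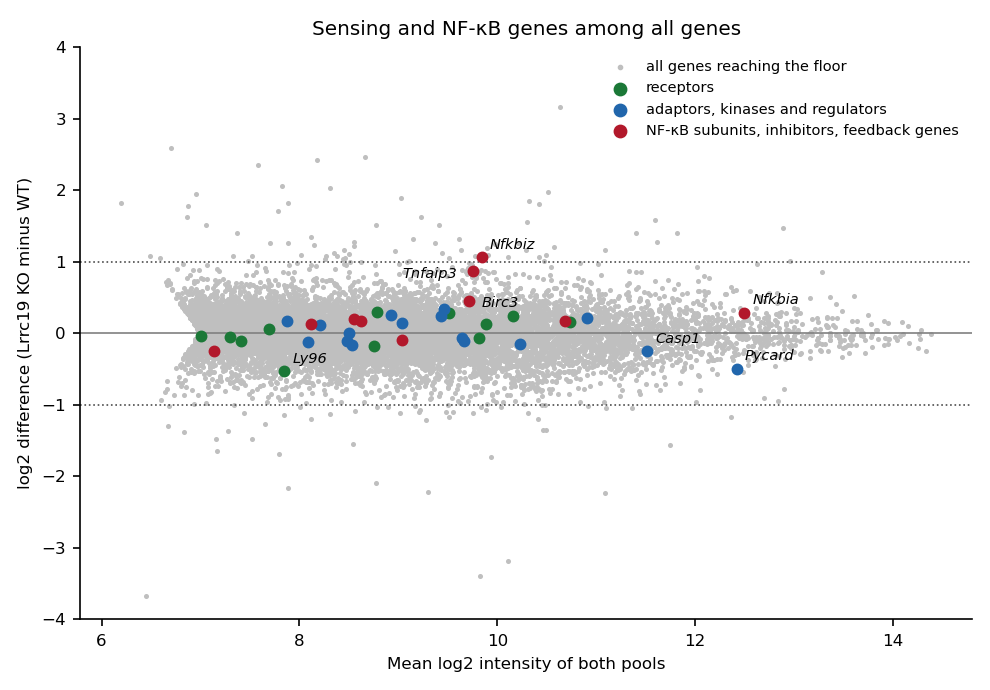
Log2 difference (Lrrc19 KO minus WT) against the mean log2 intensity of both pools for 12518 genes that reached the floor (gray) and the 38 genes described here (colored by role), with dotted lines at 2-fold. The colored points lie within the cloud, apart from Nfkbiz (1.06) and Tnfaip3 (0.86) near its upper edge.

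Other genes of the same pathway were read from a second list of 62, of which 55 had a probe set and 46 reached the floor. None passed 2-fold (beside 0.967% of all genes), and the median log2 difference was 0.01. Of the 46, 23 were higher (beside 52.1% of all genes) and 23 were lower. The largest differences were those of Birc2, which encodes cIAP1, the close relative of cIAP2 (467 in WT and 764 in KO, 0.71), the IL-1 receptor Il1r1 (363 and 585, 0.69), and Naip6, a NAIP family sensor of flagellin (591 and 877, 0.57). All 3 were higher in the KO pool. Birc2 and Naip6 were read from 1 probe set each, and the second probe set of Il1r1 was far under the floor (24.9 and 13.6).

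Genes that NF-κB is known to induce were read from another list of 28, of which 19 reached the floor. None passed 2-fold (beside 0.967% of all genes), and the median log2 difference was 0.13. Of the 19, 15 were higher (beside 52.1% of all genes) and 4 were lower, a split that depends on the scaling. Ptgs2, which encodes the prostaglandin enzyme COX2, was 149.9 in WT, close to the floor, and 275 in KO (0.87). Its other probe set did not reach the floor, and averaging both gave 0.60. Lcn2, an iron-sequestering antimicrobial protein, was 113 in WT, under the floor, and 183 in KO, so the size of its difference (0.70 by value) cannot be relied on. Cflar, an inhibitor of caspase-8, was 615 and 833 (0.44), with 2 probe sets at or above the floor higher and 2 lower. Neither pool reached the floor for the cytokines Tnf (113 and 117) and Il6 (14.2 and 18.6). Both pools reached it for the cytokines Il1b (137 and 144) and Il23a (1192 and 1286).

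Markers of other cells moved between the pools as well. Macrophage markers were lower in 7 of 9 cases (beside 47.9% of all genes), with a median log2 difference of -0.12. That median was smaller in size than the SD between probe sets. Summed over all 10, with Cd68 under the floor in both pools, their intensity was 7818 in WT and 6544 in KO. Adgre1, which encodes the defining F4/80, differed most, at 606 and 363, while Mrc1 (246 and 252) and Mertk (592 and 609) were slightly higher. Smooth muscle markers were higher in 5 of 5 cases (beside 52.1% of all genes), with a median of 0.55. Their sum was 38725 in WT and 51496 in KO. Enterocyte markers had a median of 0.05 and a sum of 49930 and 52526. The markers of macrophages thus lay mostly on the side of Ly96, Pycard, and Casp1, as did the endothelial median (-0.21), but Cd14 (0.12) did not. Those of smooth muscle lay on the side of Nfkbiz, Tnfaip3, and Birc3. So did the medians of dendritic cell (0.13), T cell (0.13), mast cell (0.10), and fibroblast (0.08) markers, and of B cell markers (0.23, from Cd79b, under the floor in WT). The part of these cells in the differences was not tested.

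Most markers of the other depleted cells also reached the floor, as did 12518 of all 18193 genes. Some did so narrowly, such as Itgax (144 in WT and 149 in KO) and Flt3 (136 and 152). Dendritic cell markers had a median log2 difference of 0.13 over 5 genes (from -0.25 to 0.24), and their summed intensity was 944 in WT and 984 in KO. T cell markers ran in both directions, with a median of 0.13 over 5 genes (from -0.63 to 0.23) and a sum of 1396 and 1374. B cell markers had a median of 0.23 over 3 genes (from 0.22 to 0.63) and a sum of 571 and 702. Of these, Ms4a1 (108 in WT and 166 in KO) and Cd79b (114 and 133) were under the floor in WT. The size of their differences, and so of the B cell median, cannot be relied on. Among the lymphocyte markers at or above the floor, those of T cells thus lay on both sides of 0, and those of B cells lay above it. The medians were 0.08 over 5 fibroblast markers, -0.21 over 4 endothelial markers, and 0.10 over 3 mast cell markers. Of 5 neutrophil markers with a probe set, 4 were under the floor, and Csf3r was 813 in WT and 871 in KO. The defining neutrophil gene S100a8 was far under the floor (42.6 and 41.2).

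**Figure D4:**
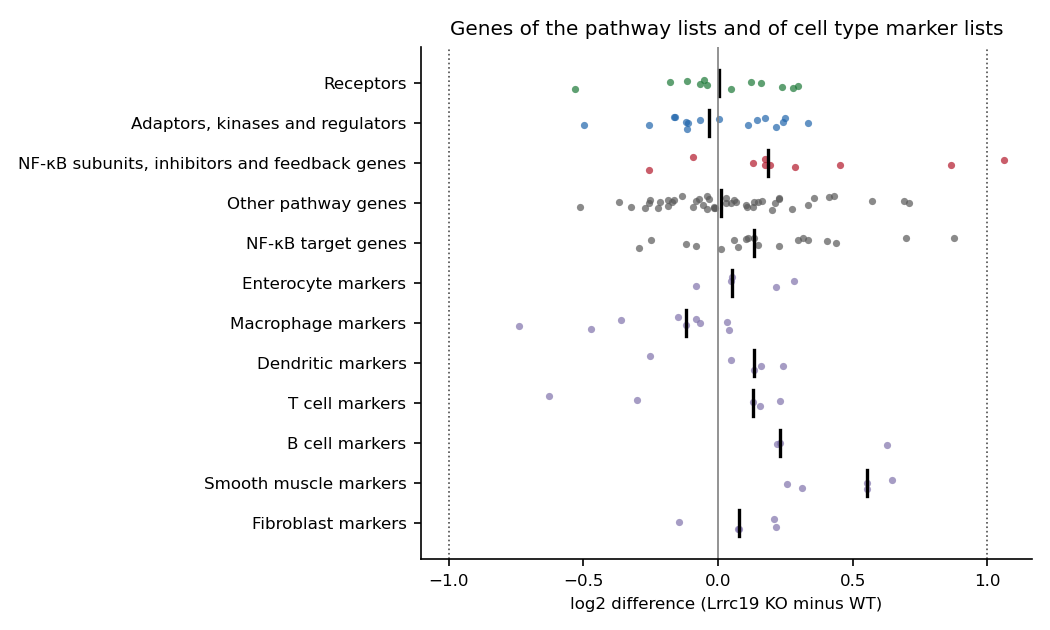
Log2 difference (Lrrc19 KO minus WT) of each gene at or above the floor (points, spread vertically for legibility) in the pathway lists and in 7 cell type marker lists, with the list median as a black bar and dotted lines at 2-fold. The NF-κB genes (0.18) and NF-κB targets (0.13) lie to the right of receptors (0.0049) and adaptors and kinases (-0.03), and the smooth muscle markers (0.55) lie further to the right.

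**Figure D5:**
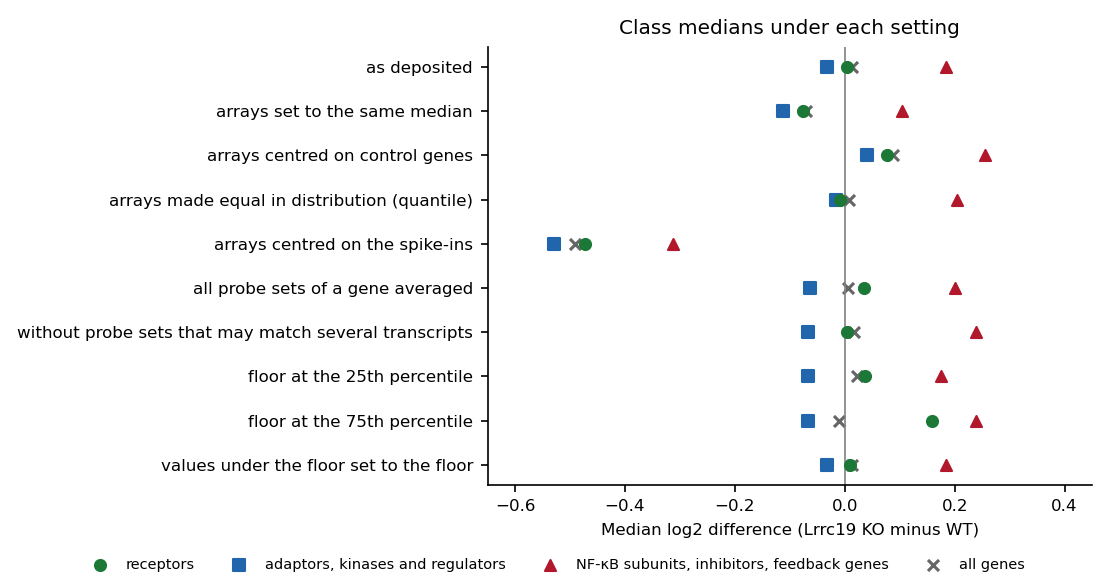
Median of the log2 differences (KO less WT) of the receptors, the adaptors, kinases, and their regulators, the NF-κB genes, and all genes, for the values as deposited and for 9 other settings. The NF-κB median lies to the right of that of all genes in every setting shown, while centering on the spike-ins moves all 4 medians under 0. Equal medians, control genes, and spike-ins shift all genes alike, so those settings could hardly change the distance between the medians.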

How the data were processed

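RNA of gut epithelial cells was hybridized to 1 Affymetrix mouse genome array for the WT pool and 1 for the Lrrc19 KO pool, and groups were taken from the genotypes in the labels. The authors deposited 1 linear intensity per array for each of 45101 probe sets, from 1 to 25842. RMA, without a version, is named in the submitters' processing notes. RMA usually gives log2 values of equal distribution on every array, and these had neither property, so the scaling between the arrays is not known. The plan for log2 values was followed with log2 taken after values under 1 were set to 1.

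Apart from 64 control probe sets, which were dropped, 34945 had 1 gene symbol and were used. A further 932 with several symbols were not used, and 9160 had none here. Gene identifiers matched 34741 of the used probe sets to RefSeq GRCm38.p6, from which current symbols were taken. Every gene of the list is named, and from the other pathway lists the 3 with the largest differences. Tnf, Il6, Il1b, Il23a, and the single marker genes named were chosen after their values were seen. The genes and lists were chosen with earlier results of these data known. Python 3.11.15, numpy 2.4.6, pandas 2.3.3, and matplotlib 3.10.9 were used, and the calls were tested on simulated data. Scaling, probe set choice, floor, and dim values were varied in 9 alternatives.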

Additional observations from a re-analysis of the deposited data

How the results depend on the processing

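Nfkbiz remained the only gene of the list past 2-fold with the arrays centered on 8 control genes (of 11 listed, those with a probe set of their own), with equal distributions, without probe sets that may match several transcripts, at either other floor, and with dim values set to the floor. The count of higher genes of the list was 0 with equal medians, with averaged probe sets, and with centering on the spike-ins, and it was 2 at 1.5-fold, a limit added after seeing the data. Centering on the spike-ins, which shifts every log2 difference by -0.50, gave 1 lower gene of the list (Ly96), 22 higher and 677 lower genes in all, and medians of -0.47 for receptors, -0.53 for adaptors, kinases, and their regulators, -0.31 for NF-κB genes, and -0.49 for all genes. With all probe sets averaged, 46 genes in all were higher, and Nfkbiz, Tnfaip3 (0.46), and Ikbkb moved by more than the SD between probe sets. The cause was not tested. No paired analysis was possible because each genotype had 1 array. Signals under the floor carry no difference that can be read.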
